A study of Mus musculus with 8 samples.

Results

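Keratins were followed across 16 mouse mammary tumours. The family was taken as every gene on the array whose symbol is Krt followed by digits alone, which leaves out the keratin-associated proteins. It held 49 genes, measured by 59 probes, of 21154 named genes in all. The 4 keratins with a letter after the digits (Krt6a, Krt6b, Krt33a and Krt33b) fell outside this rule and were counted apart, as the nearest relatives. No measured value entered this rule, which was set with earlier results of these data known.

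The tumours were pieces of MMTV-PyMT tumours grown orthotopically in wild-type FVB mice. In this model the promoter of the mouse mammary tumour virus drives the polyoma middle T oncogene in the mammary epithelium, and every group carried it, the controls included. RANK-Fc, a soluble decoy receptor that binds RANK ligand, was given at 10 mg/kg into the peritoneum 3 times a week. Passage 1 had 2 control tumours and 3 RANK-Fc tumours. Passage 2 had 2 control tumours, 3 with RANK-Fc during that passage (current, adjuvant in the labels), 3 with RANK-Fc beforehand (prior, neoadjuvant in the labels) and 3 with both. That the prior treatment fell in passage 1 is a reading of the group codes. Each tumour bore its own animal code. The passage 1 parent of each passage 2 tumour and the age of the mice are not given in the sources used here.

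Keratins are the intermediate filament proteins of epithelial cells, and a filament needs a type I and a type II partner. Luminal cells of the mammary gland are known for the simple keratins (type II Krt7 and Krt8, type I Krt18 and Krt19), whereas myoepithelial and basal cells carry type II Krt5 with type I Krt14 and Krt17. Squamous epithelia, such as epidermis, switch to other pairs as they differentiate, and hair follicles use a large set of their own. The genes of each type lie together in a cluster, apart from Krt18, which sits with the type II genes.

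Gene expression was read from 8 Agilent arrays of 2 colours, with 1 tumour in each channel. Between 47.5% and 56.5% of the spots of a channel were well above background, and no spot was saturated. Levels are log2 normalised intensities, which were compared between tumours for the same probe and never between probes. The epithelial genes Epcam and Cdh1 were well above background in 16 of 16 tumours, with ranges of 11.80 to 12.54 and 10.15 to 10.62. Trp63, the basal transcription factor, was also well above background in 16 tumours. Of the markers of other cell types and tissues, the stromal gene Col1a1, the leukocyte gene Ptprc, the adipocyte gene Adipoq and the muscle gene Acta1 were above background in 16 tumours each. The muscle gene Ckm was above background in 2 tumours, and of the cornified-envelope genes Lor was in 4 and Ivl in none.

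In total 24 of the 49 keratins passed the filter, which asked for a mark well above background in all tumours of 1 group or more, and 21 of these were well above background in all 16 tumours. The simple keratins passed with 5 of 6 genes (Krt7, Krt8, Krt18, Krt19 and Krt23), and Krt20, a keratin of gut and bladder lining, was above background in none. All 4 basal keratins passed (Krt5, Krt14, Krt15 and Krt17). Among 14 squamous and stratified keratins 7 passed (Krt2, Krt9, Krt10, Krt13, Krt16, Krt79 and Krt80), and Krt4, Krt12, Krt24 and Krt76 were above background in no tumour. Of 21 hair and follicle keratins 6 passed (Krt27, Krt31, Krt71, Krt73, Krt81 and Krt86) and 12 were above background in no tumour. The remaining 2 genes that passed were Krt42 and Krt222, out of 4 that fit no class. Krt2, Krt13 and Krt222 each had another probe that was above background in no tumour, so their detection rests on the brighter probe. Luminal and basal keratins were thus above background in the same tumours, with a partial set of squamous and hair keratins. Probe sequences were not used here, so signal shared between closely related keratins, such as Krt6a and Krt6b or Krt14, Krt16, Krt17 and Krt42, was not tested.

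**Figure D1:**
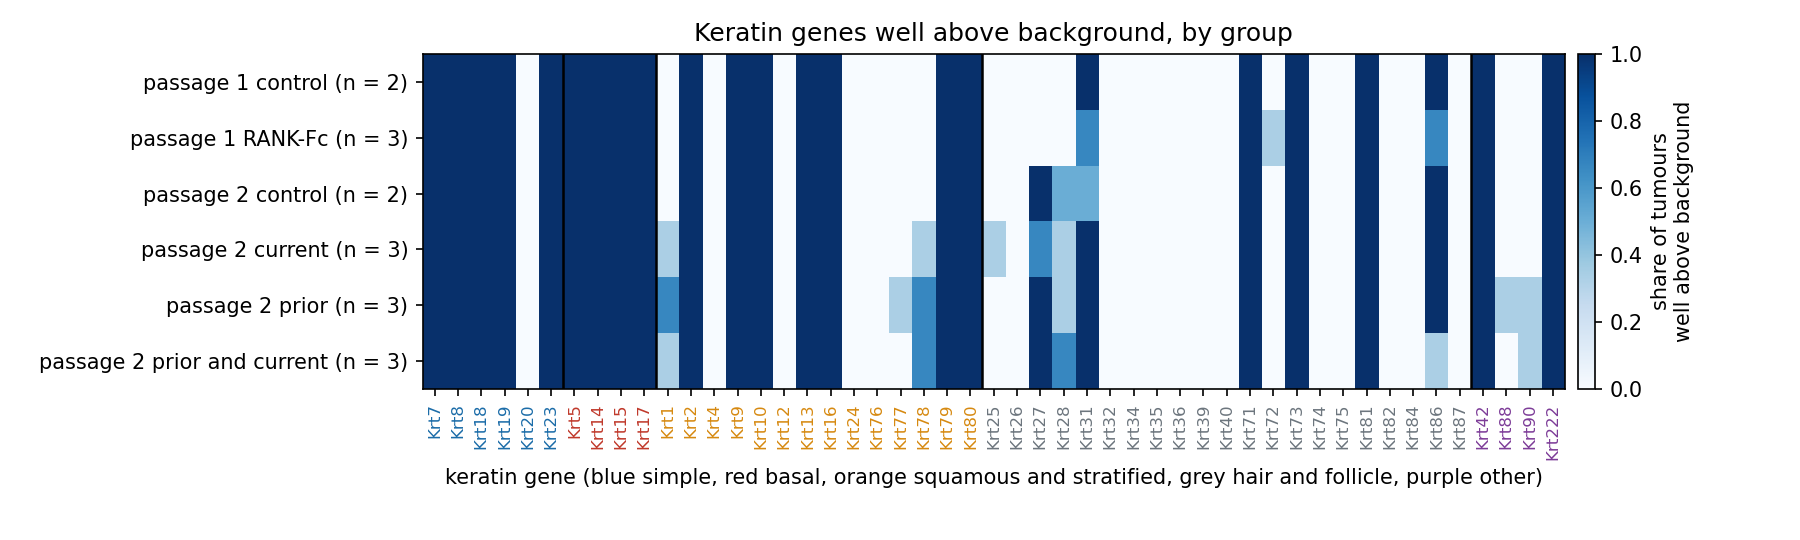
Share of tumours well above background (colour, 0 to 1) for the 49 keratins on the horizontal axis in the 6 groups on the vertical axis, with the number of tumours per group. Black lines part the classes. The simple keratins other than Krt20 and the 4 basal keratins are dark in every group, and Krt27 is dark in passage 2 alone.

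A further 8 keratins were above background in some tumours without passing. The epidermal keratin Krt1 was above background in 4 tumours, Krt78 and Krt28 in 5 each, Krt90 in 2, and Krt25, Krt72, Krt77 and Krt88 in 1 each. For 7 of these 8 genes every such tumour belonged to passage 2, and Krt72 was the exception. The same held for 38.4% of the 2196 genes on the array that were above background in some tumours without passing. Passage 2 has 11 of the 16 tumours, and these counts were not tested.

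The bases upstream of the annotated starts are shown for Krt23, which had the widest range, and for Krt27, which was above background in passage 2 alone. Both lie in the type I cluster. The sequences are from RefSeq on GRCm38.p6, read 5′ to 3′ on the minus strand, over chr11:99493121-99493370 for Krt23 and chr11:99351119-99351368 for Krt27. Capitals mark a match to the NF-kB consensus in Krt23, from -53 to -44 of the start, and to TATAAA in Krt27, from -15 to -10.
Krt23: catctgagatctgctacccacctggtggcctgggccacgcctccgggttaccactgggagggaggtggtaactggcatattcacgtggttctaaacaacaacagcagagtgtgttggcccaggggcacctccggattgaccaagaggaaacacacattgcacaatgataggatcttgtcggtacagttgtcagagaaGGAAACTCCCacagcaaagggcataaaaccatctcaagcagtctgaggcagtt
Krt27: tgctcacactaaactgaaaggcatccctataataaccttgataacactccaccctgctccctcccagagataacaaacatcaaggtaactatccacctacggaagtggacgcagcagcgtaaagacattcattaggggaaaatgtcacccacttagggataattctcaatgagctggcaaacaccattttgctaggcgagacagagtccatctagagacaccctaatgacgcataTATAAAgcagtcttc
Both strands were searched for 5 motifs in windows of 250 bases. The NF-kB consensus was present in 7.3% of 32851 such promoters and in 4 of the 16 tested keratins with an entry (Krt14, Krt18, Krt23 and Krt79). TATAAA was present in 12.4% of promoters and in 5 of the 16 keratins (Krt10, Krt27, Krt31, Krt71 and Krt73). TGANTCA, the AP-1 element, was found in 6.7% of promoters and in Krt13. GCCNNNGGC, bound by AP-2, was found in 13.7% and in 4 keratins (Krt7, Krt9, Krt18 and Krt42). TTCNNNGAA, the STAT element, was found in 7.0% and in Krt31 and Krt42. These matches are descriptions of letters and no binding was measured.

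Between passages, at matched treatment, Krt23 fell and Krt15 and Krt17 rose, while the defining luminal and basal keratins Krt8, Krt18, Krt5 and Krt14 did not pass the test. The comparison set the 5 passage 2 tumours without prior RANK-Fc against the 5 of passage 1. It called 4 of 24 keratins (3 higher, 1 lower) by limma at an adjusted p under 0.05, where 12% of the 14131 genes tested were called, 4.3% higher and 7.68% lower. The fourth call was Krt27, which had passed the filter through passage 2 groups alone and so had to differ; its value is a description, and without it 3 of 23 keratins were called. The share over all genes includes genes let in the same way. By class, the calls were 1 of 5 simple keratins, 2 of 4 basal, 1 of 6 hair and follicle, and none of 7 squamous and stratified or of the 2 others. Each of the 4 called keratins was measured by 1 probe. In bulk tumour, fewer cells of a type and less RNA per cell cannot be told apart.

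Krt23, a type I keratin of glandular epithelia, had the largest range of the 24 keratins, 4.40 on the log2 scale. Its levels were 10.76 and 11.82 in the passage 1 controls and 11.70, 12.09 and 11.79 with RANK-Fc in passage 1. In passage 2 they were 9.00 and 8.82 in the controls and 9.85, 7.86 and 9.01 with current RANK-Fc. Every passage 2 tumour without prior treatment lay below every passage 1 tumour. The difference was -2.66 ± 0.35 (SE, 95% interval -3.42 to -1.90, limma adjusted p = 5.991e-04), or 6.32-fold lower in passage 2. The call held when any of the 10 tumours was left out, with values from -2.94 to -2.41. Log ratios within arrays alone, which leave few degrees of freedom, gave -2.67 and ended the call (adjusted p = 0.155, against 2.52e-04 to 0.0017 in the 11 other settings).

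None of the other simple keratins that passed the filter was called between passages. Krt18 ranged from 15.55 to 16.24 over the 16 tumours and Krt8 from 12.93 to 13.71, the 2 partners that form the filament of luminal cells. Passage 2 minus passage 1 was -0.20 ± 0.13 (SE) for Krt18 (95% interval -0.47 to 0.07) and 0.08 ± 0.15 for Krt8 (-0.24 to 0.40). Krt7 gave -0.43 ± 0.29 (-1.05 to 0.20) and Krt19 -0.20 ± 0.36 (-0.99 to 0.58). The intervals of Krt7 and Krt19 are wider than those of Krt8 and Krt18.

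Among the basal keratins, Krt17, which is known from myoepithelium, skin appendages and wounded epidermis, was 8.89 and 8.77 in the passage 1 controls and 8.82, 8.62 and 9.06 with RANK-Fc. Passage 2 controls had 9.84 and 10.05, and tumours with current RANK-Fc had 10.01, 10.27 and 10.72. The groups did not overlap, and the difference was 1.27 ± 0.31 (SE, 95% interval 0.60 to 1.94, limma adjusted p = 0.0189), 2.42-fold higher in passage 2. The call was lost in 4 of 10 fits that left out 1 tumour: without passage 1 RANK-Fc tumour 1 (1.19), passage 1 control 1 (1.21), passage 1 control 2 (1.35) or passage 2 control 2 (1.11), with adjusted p from 0.0238 to 0.102 over the 10 fits. It was also lost with log ratios alone (1.19).

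Krt15, a keratin of the basal layer and of stem cells in the follicle bulge, was 8.01 and 7.91 in the passage 1 controls and 8.90, 7.46 and 7.43 with RANK-Fc. In passage 2 it was 9.16 and 10.06 in the controls and 9.65, 8.89 and 8.11 with current RANK-Fc. The passages overlapped, through the 8.90 of a passage 1 RANK-Fc tumour and the 8.11 of a passage 2 current RANK-Fc tumour. The difference was 1.30 ± 0.33 (SE, 95% interval 0.58 to 2.02, limma adjusted p = 0.0242), or 2.46-fold. Its call was lost in 5 of 10 fits that left out 1 tumour: passage 2 current RANK-Fc tumour 1 (1.05), passage 1 RANK-Fc tumour 2 (1.21), passage 1 control 1 (1.30), passage 1 control 2 (1.29) or passage 2 control 2 (0.97). Adjusted p over these 10 fits ran from 0.0119 to 0.139. Log ratios alone gave 1.28, also without a call.

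Krt5 and Krt14, the pair of the basal filament, gave -0.56 ± 0.25 (SE, 95% interval -1.10 to -0.01, limma adjusted p = 0.1776) and 0.34 ± 0.24 (-0.18 to 0.86, adjusted p = 0.3971). Krt5 was 11.26 to 11.96 in passage 1, 10.68 and 10.61 in the passage 2 controls, and 11.55, 10.56 and 11.87 with current RANK-Fc. The 11.55 and 11.87 lay inside the passage 1 range. A dimmer Krt5 probe, above background in 15 tumours, differed by -0.02 in the same comparison, so the 2 probes of this gene did not give the same value.

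**Figure D2:**
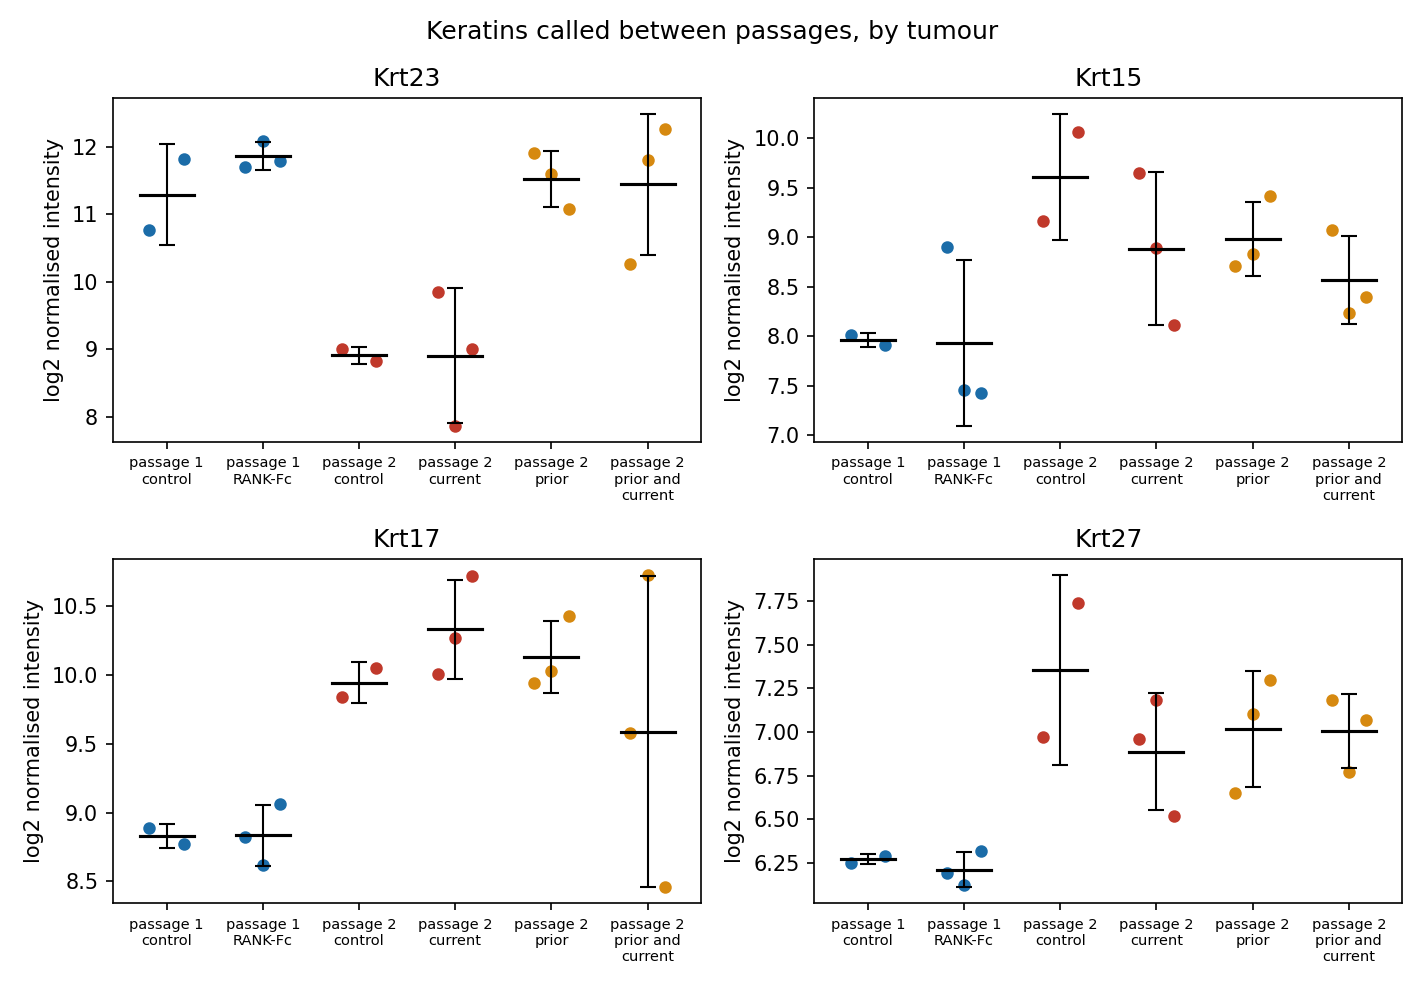
Log2 normalised intensity (vertical axis) of Krt23, Krt15, Krt17 and Krt27 in each tumour of the 6 groups (horizontal axis), blue for passage 1, red for passage 2 without prior RANK-Fc and orange with it. Horizontal bars are group means and error bars the SD over 2 or 3 tumours. Krt23 is low in the red groups alone.

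None of the 7 squamous and stratified keratins that passed the filter was called between passages, and the difference was positive for 7 of 7, with a median of 0.23 against -5.036e-04 for all genes. The smallest were 0.02 for Krt80, which kept its sign in 14 of 22 alternative fits, and 0.09 for Krt2. With prior RANK-Fc, passage 2 tumours against passage 1 gave 4 positive and 3 negative values, with a median of 0.28. That comparison was added after the values were seen. Krt16, which is known for its rise in wounded and hyperproliferative epidermis, was 7.63 and 7.97 in passage 1 controls and 8.28, 7.77 and 7.65 with RANK-Fc. In passage 2 it was 9.12 and 8.92 in controls and 8.94, 9.39 and 10.86 with current RANK-Fc. The groups did not overlap, but the spread was wide and the difference of 1.41 ± 0.48 (SE) had a limma adjusted p of 0.0768. Krt13, a keratin of mucosal epithelia, also did not overlap, at 7.90 to 8.09 in passage 1 and 8.17 to 8.62 in these passage 2 tumours, with a difference of 0.28 ± 0.14 (adjusted p = 0.2338). The other Krt13 probe was above background in no tumour. In all, 4 keratins lay higher without overlap (Krt13, Krt16, Krt17 and Krt27, where 5.7% of all genes did) and 1 lower (Krt23, where 8.08% did). Of these, Krt27 had passed the filter through passage 2 groups alone, so its higher level is a description and no support for a rise. Without current RANK-Fc tumour 3 and prior and current RANK-Fc tumour 3, a choice made after the values were seen, the count of keratins called between passages was 7, with Krt5, Krt9 and Krt16 added to the 4.

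The lettered relatives of Krt16 and Krt17 gave 0.85 ± 0.34 (SE, Krt6a, limma adjusted p = 0.1292) and 1.17 ± 0.51 (Krt6b, 0.165). A dimmer Krt6b probe, above background in 7 tumours, gave 0.67. These type II keratins of wounded epidermis pair with Krt16 and Krt17. In passage 1 the Krt6b probe used was above background in 1 of 2 controls and 1 of 3 RANK-Fc tumours. It passed the filter through passage 2 groups alone, so its passage difference is a description. Krt6b was 6.28 to 6.52 in passage 1 and 6.97, 6.89, 7.40 and 7.11 in 4 passage 2 tumours without prior RANK-Fc. It reached 10.37 in current RANK-Fc tumour 3. That tumour also had the highest Krt16 (10.86), Krt14 (11.54) and Krt19 (12.77) of the 16. Its Col1a1 level was 15.53 and the mean of its 12 fibroblast genes 12.33, against 10.04 to 11.61 in the other tumours; their part in these keratin levels was not tested.

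The suprabasal epidermal keratin Krt10 stayed between 7.85 and 8.51 in 15 tumours and was 8.89 in prior RANK-Fc tumour 1, with a passage difference of 0.22 ± 0.18 (SE), or 0.10 by a dimmer probe above background in 9 tumours. In that tumour Lor was 9.56 and the muscle gene Acta1 10.49, the highest of each, and the mean of the 4 muscle genes measured was 9.79. Muscle means were 8.92 in current RANK-Fc tumour 3 and 7.51 to 7.74 in the other 14. The part of these genes in the Krt10 level was not tested. Krt79, a type II keratin of the follicle opening, ranged from 10.36 to 13.11 and differed by 0.41 ± 0.47. Krt2, Krt9 and Krt80 had ranges of 0.72, 0.52 and 0.46 and differences of 0.09, 0.23 and 0.02.

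Of the hair and follicle keratins, Krt27 stood apart by its detection. This type I keratin of the inner root sheath was above background in none of the 5 passage 1 tumours, where its probe read 6.12 to 6.32. It was above background in 10 of 11 passage 2 tumours, at 6.97 and 7.74 in controls and 6.96, 7.18 and 6.52 with current RANK-Fc. The passages did not overlap, and the mean of 7.07 in passage 2 without prior RANK-Fc, where 4 of 5 tumours were above background, was at least 1.76-fold higher than the bound of 6.26 in passage 1 (measured mean 6.23). Such a bound takes, for each dim tumour, the higher of its reading and of the dimmest signal well above background, and carries no sampling error. The fitted difference was 0.86 ± 0.17 (SE, limma adjusted p = 0.0064), which sets readings near background against measured ones in a gene that the filter kept for its passage 2 signal, and is no independent support for a rise. With the processed signals of the scanner software the difference was 2.69, and with log ratios within arrays alone it was 0.77 and did not pass (adjusted p = 0.25, against 0.0034 to 0.0213 in the other settings).

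The type II partners of the inner root sheath did not pass the test. Krt71 gave -0.52 ± 0.20 (SE, limma adjusted p = 0.116) and Krt73 0.34 ± 0.16 (0.1886). The cortex keratins Krt31, Krt81 and Krt86 differed by 0.05, -0.15 and 0.14. Of 55 hair shaft associated genes 20 were tested and 1 was called, Tchh, the trichohyalin of the inner root sheath, at 1.09 ± 0.30 (adjusted p = 0.0357), where 4.3% of all genes were called higher. Their median difference was 0.10, with 17 of 20 positive. The mean level of these 20 genes ran from 7.23 to 7.69 over the 16 tumours.

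Krt42, a type I keratin known from mouse nail, and Krt222, a keratin-like gene, differed between passages by -0.06 ± 0.33 and -0.14 ± 0.23 (SE). Their ranges were 8.34 to 10.37 and 10.04 to 11.73.

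**Figure D3:**
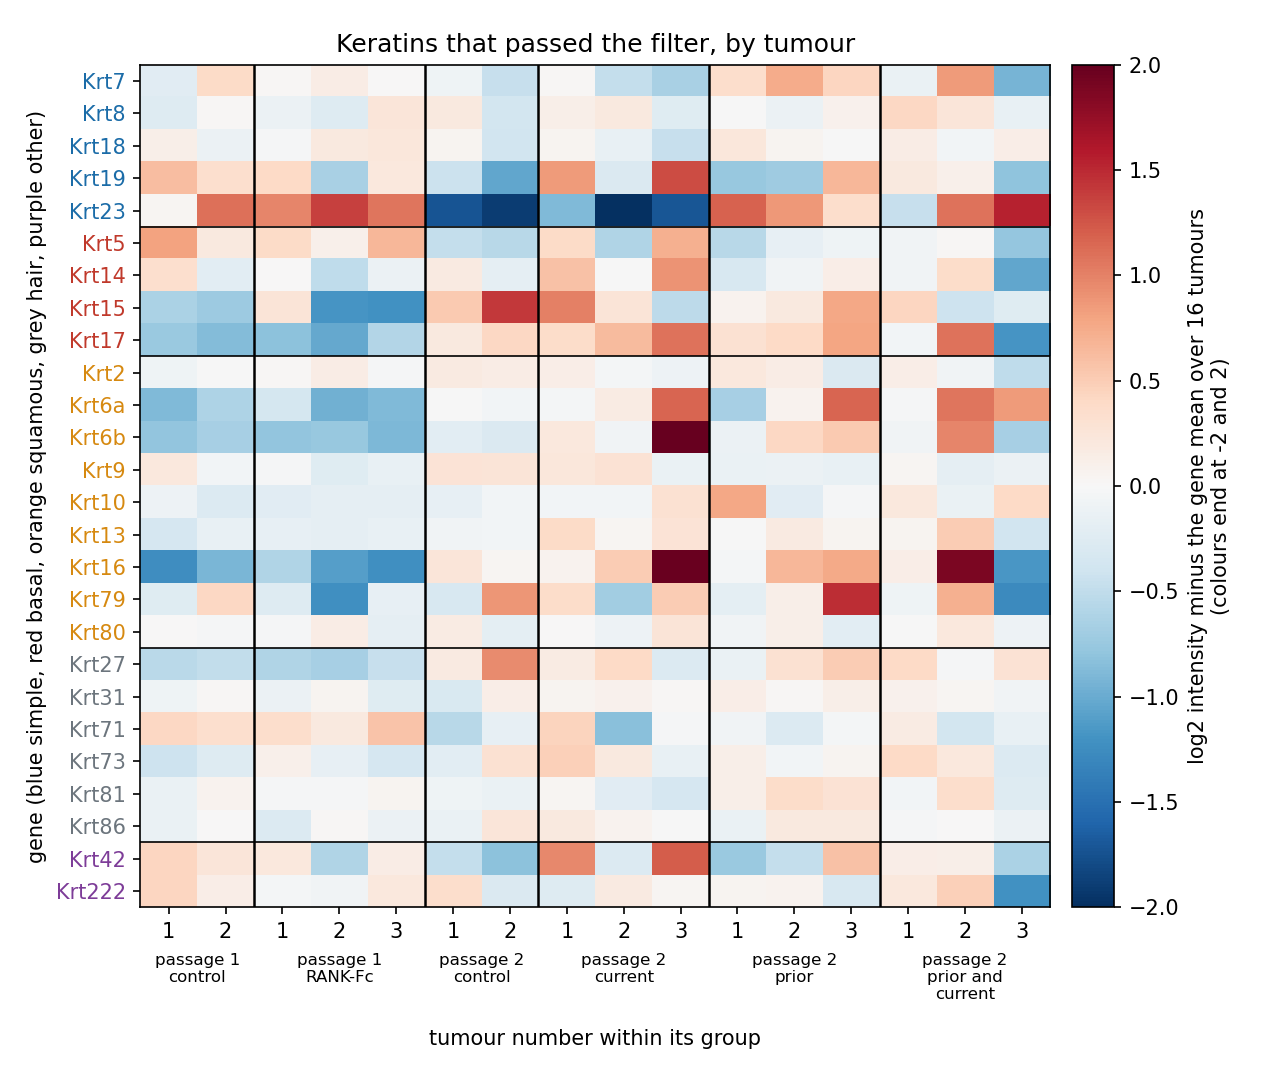
Log2 intensity minus the gene's mean over the 16 tumours (colour, ending at -2 and 2) for the 24 keratins that passed and for Krt6a and Krt6b (rows), in the 16 tumours by group (columns). Krt23 is darkest blue in the 5 passage 2 tumours without prior RANK-Fc, and Krt17 and Krt16 are blue in passage 1 and in prior and current RANK-Fc tumour 3.

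Prior RANK-Fc, within passage 2, was asked about next, as the mean of its difference without and with current RANK-Fc. Krt23 was higher with prior RANK-Fc, and no other keratin passed the test. Limma called 1 of 24 keratins, where 0.354% of genes were called, 0.269% higher and 0.0849% lower. The parent tumours are not given, so prior treatment and differences between parent tumours cannot be told apart. The fit takes the tumours as independent, and its SE does not cover a spread between parents. Krt23 was 11.90, 11.60 and 11.08 in the tumours with prior RANK-Fc alone and 10.27, 11.81 and 12.26 with prior and current RANK-Fc, against 7.86 to 9.85 in the 5 tumours without it. The 6 and 5 tumours did not overlap, as was so for 0.969% of all genes in this direction. The difference was 2.71 ± 0.33 (SE, 95% interval 1.99 to 3.43, limma adjusted p = 0.0037), a 6.54-fold higher level. Leaving out each of the 11 tumours in turn kept the call, with values from 2.53 to 3.05. Log ratios within arrays alone gave 2.62 and ended it (adjusted p = 0.425, against 5.74e-04 to 0.0439 in the 11 other settings).

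Set against the passage 2 controls alone, Krt23 gave 2.60 ± 0.47 (SE, limma adjusted p = 0.09) with prior RANK-Fc and 2.58 ± 0.48 (adjusted p = 0.0937) with prior and current RANK-Fc. Neither passed, and neither comparison called any keratin, where 0.00708% and 0.0778% of genes were called (0.00708% and 0.0708% higher). In each, 3 of 24 keratins had an unadjusted p under 0.05, beside 1064 and 1229 of the 14131 genes tested. The passage and prior comparisons share the 5 passage 2 tumours without prior RANK-Fc, so the 2 differences of Krt23 are not independent. Passage 2 tumours with prior RANK-Fc differed from passage 1 by 0.05 ± 0.33 (95% interval -0.67 to 0.77) in Krt23, in a comparison added after the values were seen.

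Among the keratins that added comparison called Krt27 alone, at 0.82 ± 0.16 (SE, limma adjusted p = 0.0146), with the same limit that its passage 1 readings are not above background and that passage 2 let it through the filter, where 5.82% of genes were called, 2.14% higher and 3.68% lower. Krt27 was 6.65, 7.10 and 7.30 with prior RANK-Fc and 7.18, 6.77 and 7.07 with prior and current RANK-Fc. All 6 values lay above the 5 of passage 1. Krt17 gave 0.97 ± 0.29 (adjusted p = 0.072) and Krt15 0.83 ± 0.32 (0.1346). In the tumours with prior and current RANK-Fc, Krt17 was 9.58, 10.73 and 8.46, and the last lay below every passage 1 tumour. The same tumour had the lowest Krt14 (9.60), Krt5 (10.39), Krt7 (9.94), Krt79 (10.36) and Krt222 (10.04) of the 16, and a Krt16 level of 7.71.

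No basal keratin passed the test for prior RANK-Fc, and the differences of the 4 were negative, with a median of -0.39. Krt14 gave -0.47 ± 0.23 (SE, 95% interval -0.97 to 0.02), Krt15 -0.47 ± 0.32 (-1.15 to 0.22), Krt17 -0.30 ± 0.29 (-0.94 to 0.33) and Krt5 -0.11 ± 0.24 (-0.62 to 0.41). Simple keratins other than Krt23 gave 0.56 ± 0.27 (Krt7, -0.03 to 1.15), 0.23 ± 0.12 (Krt18, -0.03 to 0.48), 0.05 ± 0.14 (Krt8, -0.25 to 0.36) and -0.32 ± 0.34 (Krt19, -1.06 to 0.43). The palm and sole keratin Krt9 was next to Krt23 in the size of its p, with -0.31 ± 0.08 and a limma adjusted p of 0.1157. The interaction term of current with prior RANK-Fc called no keratin and no gene (0%), and 0 keratins and 905 genes had an unadjusted p under 0.05.

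**Figure D4:**
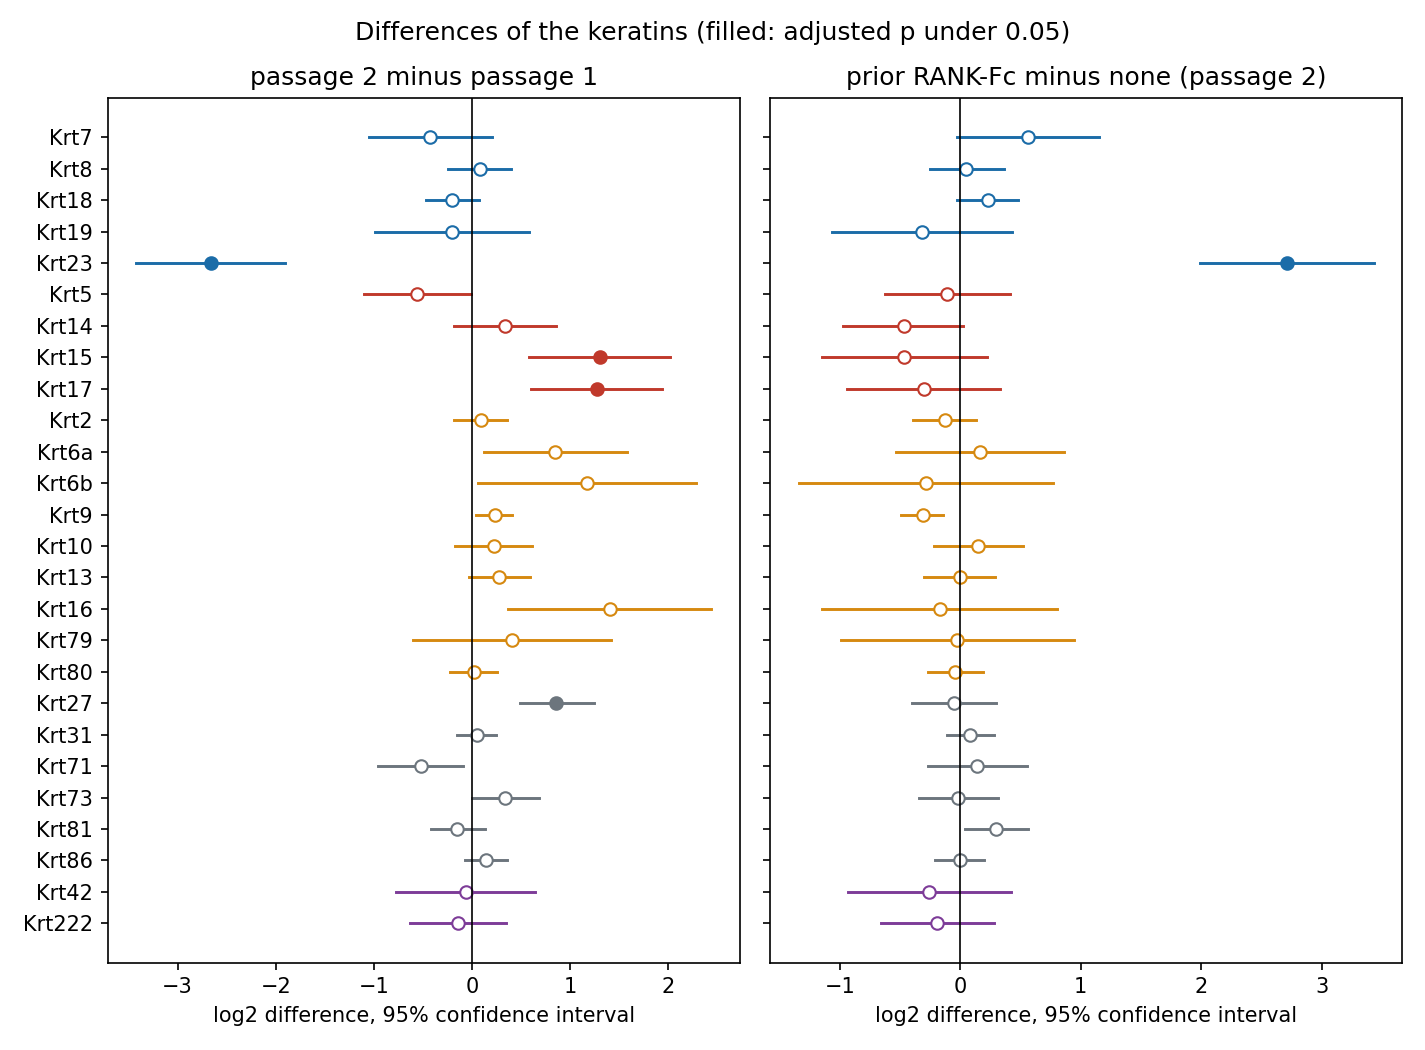
Log2 differences (points) with 95% confidence intervals (lines) of the 24 keratins and of Krt6a and Krt6b, for passage 2 minus passage 1 (left) and prior RANK-Fc minus none in passage 2 (right). Colours are the keratin classes (blue simple, red basal, orange squamous and stratified, grey hair and follicle, purple other). Filled points passed an adjusted p of 0.05; Krt23 is filled in both, at -2.66 and 2.71, and Krt15, Krt17 and Krt27 on the left.

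Current RANK-Fc was compared with no current treatment as the mean over 3 backgrounds, and no keratin passed the test. The background of prior RANK-Fc was not tested by itself. Averaged over the 3, limma called 0 of 24 keratins and 0% of genes, and 0 keratins and 881 genes had an unadjusted p under 0.05. Differences of the keratins lay between -0.64 and 0.28. The luminal pair gave 0.16 ± 0.11 (SE, Krt8, 95% interval -0.08 to 0.41) and 0.06 ± 0.09 (Krt18, -0.14 to 0.27). The basal pair gave 0.14 ± 0.19 (Krt5, -0.27 to 0.55) and 0.00 ± 0.18 (Krt14, -0.39 to 0.40). Krt23 gave 0.01 ± 0.26 (-0.57 to 0.58), so that a change of the size seen with prior RANK-Fc lies outside its interval. The largest value was that of Krt79, -0.64 ± 0.35 (-1.41 to 0.12).

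In passage 1 alone RANK-Fc called 0 keratins, and 0 keratins and 202 genes had an unadjusted p under 0.05. In passage 2 alone current RANK-Fc called 0 keratins, and 2 keratins and 531 genes had an unadjusted p under 0.05. Those 2 were Krt19 at 1.26 ± 0.48 (SE) and Krt42 at 1.17 ± 0.44, each with a limma adjusted p of 0.9999. Krt19, the type I keratin of luminal cells without a tail domain, was 11.03 and 10.43 in passage 2 controls and 12.32, 11.18 and 12.77 with current RANK-Fc. It was 12.08 and 11.81 in passage 1 controls and 11.86, 10.82 and 11.68 with RANK-Fc, and its RANK-Fc difference between the passages, 1.63 ± 0.67, had an adjusted p of 0.9998. No gene was called in either comparison or in the test of that difference (0%).

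Over the 6 groups the moderated F test called 2 of 24 keratins, where 4.68% of genes were called: Krt23 (limma adjusted p = 0.0061) and Krt27 (0.0487). Krt27 was called in 4 of 11 other settings and in 4 of 16 fits that left out 1 tumour (prior RANK-Fc tumour 1, passage 2 control 1 or current RANK-Fc tumour 2 or 3), and the filter limits its call here too. Krt23 was called in each of these fits and settings but log ratios alone. Krt17 followed with 0.1139, Krt9 with 0.1678 and Krt15 with 0.1873.

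Keratin partners were set against each other across the tumours in 7 pairs, of 9 planned, for which both genes had passed. The 2 tumours of an array share it. The basal partners Krt5 and Krt14 had r = 0.59 over 16 tumours (permutation p = 0.0146, adjusted 0.0255) and rho = 0.50 (p = 0.0514, adjusted 0.09). In Krt5, 9 of the 11 passage 2 tumours lay below every passage 1 tumour, and within the 11 tumours of passage 2 the r was 0.86 (permutation p = 0.00039), or 0.76 without the 2 farthest on Krt5 (current RANK-Fc tumour 3 and prior and current RANK-Fc tumour 3, permutation p = 0.0154, n = 9). Over all 16 tumours r fell to 0.43 (permutation p = 0.123) without the 2 farthest. Leaving out current RANK-Fc tumour 3 or prior and current RANK-Fc tumour 3 gave 0.49 and 0.47, which did not pass. Krt14 and Krt17 had r = 0.64 (permutation p = 0.00559, adjusted 0.013) and rho = 0.61 (p = 0.0137, adjusted 0.0321). This relation rested on 2 tumours: without the 2 farthest r was 0.41 (permutation p = 0.149), and within passage 2 it went from 0.82 to 0.36 without the same tumours as for Krt5. Leaving out each of them gave 0.56 and 0.54 over the other 15 tumours.

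Krt17 with its wound partner Krt6b gave r = 0.76 (permutation p = 3e-05, adjusted 0.00021) and rho = 0.81 (p = 0.0003, adjusted 0.00105), and r = 0.87 without the 2 farthest. Krt6b had passed the filter through passage 2 groups alone, so these values over both passages are a description. The passages lay apart in Krt17 but for prior and current RANK-Fc tumour 3, and within passage 2 r was 0.66 (permutation p = 0.0741, n = 11), or 0.75 without current RANK-Fc tumour 3 and prior and current RANK-Fc tumour 2 (permutation p = 0.015, n = 9). Krt16 with Krt6a gave r = 0.75 (permutation p = 0.001, adjusted 0.0035) and rho = 0.81 (p = 0.00029, adjusted 0.00105), 0.65 without the 2 farthest, and 0.49 (permutation p = 0.134, n = 11) within passage 2, where the relation did not pass, with 0.25 (permutation p = 0.506, n = 9) without current RANK-Fc tumour 3 and prior RANK-Fc tumour 3. The luminal partners Krt8 and Krt18 had r = 0.34 (permutation p = 0.2, adjusted 0.281) and rho = 0.19 (p = 0.477, adjusted 0.577). With median centring of the channels in place of the array normalisation their r was 0.85. Krt7 with Krt19 (r = 0.01, permutation p = 0.964, rho = 0.06) and Krt8 with Krt14 (r = 0.12, permutation p = 0.657, rho = 0.18) were not related at this number of tumours. Passage 1, with 5 tumours, was too small for a value of its own.

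All 276 pairs of the 24 keratins were then ranked by r, a step added after the values were seen. The median r was 0.12, and 13 pairs had an adjusted permutation p under 0.05. The closest were Krt19 and Krt42, a luminal and a nail keratin of type I, with r = 0.99 and rho = 0.99 over 16 tumours (adjusted permutation p = 0.00092 and 0.00138, the smallest that 100000 permutations can give here). Their r was 0.98 without the 2 farthest tumours and 0.99 within passage 2. Krt42 was highest, at 10.37, in the tumour with the highest Krt19 (12.77), and lowest, at 8.34, in the tumour with the lowest Krt19 (10.43).

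Krt7 and Krt81, a luminal and a hair cortex keratin of type II, came next with r = 0.94 and rho = 0.96 (adjusted permutation p = 0.00092 and 0.00138), 0.95 without the 2 farthest and 0.96 within passage 2. Krt81 moved over a narrower range, 0.70 against 1.80 for Krt7. Krt16 and Krt17 followed, and since the passages lay apart in both but for prior and current RANK-Fc tumour 3, their relation is given within passage 2 alone: r = 0.90 and rho = 0.79 (permutation p = 9e-05, n = 11), and 0.92 without current RANK-Fc tumour 3 and prior and current RANK-Fc tumour 2 (permutation p = 0.00511, n = 9). Ranks 4, 5 and 6 were Krt13 with Krt16, Krt13 with Krt17 and Krt15 with Krt27, with r of 0.78, 0.78 and 0.76 within passage 2. A simple and a basal keratin, Krt19 and Krt5, ranked 7 by absolute r, with r = 0.79 and rho = 0.79 over 16 tumours. Their adjusted permutation p was 0.0128 for r and 0.0262 for rho. The r was 0.72 without the 2 farthest tumours and 0.89 within passage 2. Whether the probes of these pairs share signal was not tested.

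**Figure D5:**
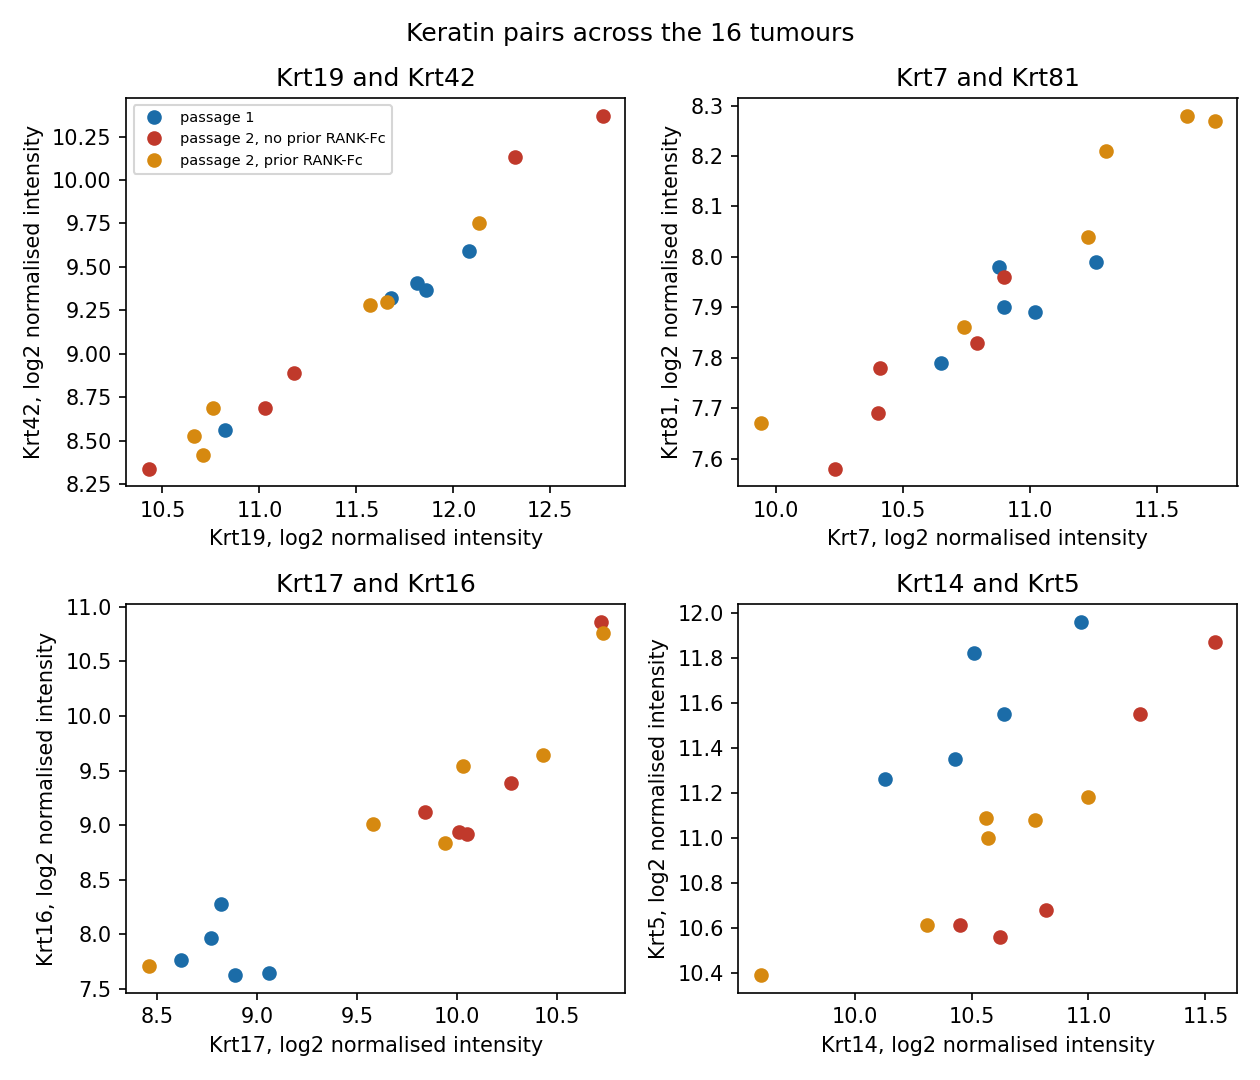
Log2 normalised intensity of 4 keratin pairs, 1 gene on each axis, with 1 point per tumour in blue for passage 1, red for passage 2 without prior RANK-Fc and orange with it. Krt19 and Krt42 (r = 0.99) and Krt7 and Krt81 (r = 0.94) lie along a line over all 16 tumours, whereas in Krt5 against Krt14 most passage 2 tumours lie below those of passage 1.

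The other genes of epithelial structure were counted beside the keratins, and each count is read against the 4.3% of all genes called higher and 7.68% called lower between passages, and 0.354% called for prior RANK-Fc. Of 17 desmosome and plakin genes, which anchor keratin filaments at the membrane, 12 were tested and 2 fell between passages: Dsp, desmoplakin, by 1.77 ± 0.27 (SE) on the log2 scale (limma adjusted p = 0.0013) and Perp by 0.58 ± 0.12 (0.0081). Pkp1, plakophilin, gave -0.83 ± 0.42 (0.2319). None of the 12 was called for prior RANK-Fc, where 10 were positive, with a median of 0.15 against -0.01 for all genes. The largest values there were 0.85 ± 0.25 for Dsp (0.1498), 0.47 ± 0.11 for Perp and 0.41 ± 0.14 for Dsc2. These comparisons share the same 5 tumours, as above.

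Of 20 cornified-envelope and squamous genes 13 were tested, and between passages 3 rose and 1 fell (4.3% and 7.68% of all genes), with a median of 0.34. Those that rose were Dmkn, dermokine, at 1.47 ± 0.33 (SE, limma adjusted p = 0.0127), the cross-linking enzyme gene Tgm1 at 0.76 ± 0.16 (0.008) and Sbsn, suprabasin, at 0.55 ± 0.15 (0.029). Lgals7, the galectin of stratified epithelia, fell by 1.41 ± 0.42 (0.0461). Krtdap gave 0.78 ± 0.32 (0.14). Ivl, the defining gene of the cornified envelope, was above background in no tumour. For prior RANK-Fc none was called and the largest were Cnfn (0.61 ± 0.39), Calml3 (0.51 ± 0.23) and Tgm1 (-0.48 ± 0.15).

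All 16 luminal genes were tested, and between passages 2 rose and 2 fell (4.3% and 7.68% of all genes). The tight junction gene Cldn4 rose by 0.94 ± 0.25 (SE, limma adjusted p = 0.0268) and Elf5, the alveolar transcription factor, by 0.58 ± 0.14 (0.0206). Foxa1, a transcription factor of hormone-sensing cells, fell by 1.64 ± 0.23 (8.93e-04) and Kit, the receptor of luminal progenitors, by 1.02 ± 0.17 (0.0024). For prior RANK-Fc 1 of the 16 was higher (0.269% of all genes), Spdef, at 1.55 ± 0.27 (limma adjusted p = 0.0336). Muc1 and Elf5 gave -0.36 ± 0.17 and -0.31 ± 0.14. Of 16 myoepithelial genes none rose and 3 fell between passages (4.3% and 7.68% of all genes): the oxytocin receptor gene Oxtr by 1.85 ± 0.23 (4.75e-04), the integrin gene Itgb4 by 0.88 ± 0.12 (9e-04) and Mme by 0.76 ± 0.22 (0.037). Cnn1 gave -1.11 ± 0.51 (0.1825). For prior RANK-Fc none was called, and Oxtr, Cnn1 and Lamb3 gave 1.04 ± 0.22 (0.0687), 0.68 ± 0.48 and -0.55 ± 0.24.

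Markers of other cell types are given for the same comparisons. The fibroblast mean was 11.01 to 11.61 in passage 1 and 10.04 to 10.53 in 4 of the 5 passage 2 tumours without prior RANK-Fc, with current RANK-Fc tumour 3 at 12.33. It was 10.15 to 11.55 with prior RANK-Fc. Of its 12 genes 10 were lower in passage 2, with a median of -0.77. The adipocyte mean was 8.36 to 10.74 in passage 1 and 7.59 to 9.17 in those 5 tumours, with 8 of 9 genes lower. The macrophage mean ran from 10.16 to 11.42 over the tumours, and for prior RANK-Fc 9 of 9 macrophage genes had a negative difference, with a median of -0.52. The endothelial mean ran from 7.85 to 8.43. None of the 12 fibroblast, 4 muscle, 9 adipocyte, 9 macrophage and 7 endothelial genes tested was called in either comparison, and their part in the keratin differences was not tested.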

How the data were processed

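Each of 16 tumours was labelled in 1 channel of 8 Agilent arrays, and images were read with the software Agilent Feature Extraction in its version 10.7.3.1, which the submitters' processing notes also name. The deposited files give median spot and background intensity values, not normalised, per the file headers. They also hold processed intensity values and the log10 ratio of red over green, per the file headers, and other quality marks per spot, per the file headers. The log10 ratio correlated with red over green at r from 0.848 to 0.933 across spots, which settled the channels. All arrays lay on 1 slide with 1 scan time. A deposited table with 8 value columns that match no label was not used.

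Here intensities were corrected by normexp (offset 50), then loess within and Aquantile between arrays, with 464 to 624 uneven or outlying spots per array set to missing. The software's well-above-background mark gave the filter. Symbols came from RefSeq accessions through a GRCm38.p6 gene table (28026 of 55681 probes named), used for names alone. Each gene was represented by the brightest of its probes that passed; 25.8% of 14131 genes had several. In R 4.3.3, tables were read by data.table at version 1.17.8 and jsonlite 2.0.0, and limma 3.58.1, using statmod 1.5.0, fitted 6 group means and dye over all 16 channels, with the estimate of the intraspot correlation corrected for its bias on simulated data, at 9 residual degrees of freedom. The Benjamini-Hochberg adjustment covered all genes tested. The fit was tested on simulated data. Permutation tests were two-sided. Python 3.11.15 with scipy 1.17.1, numpy 2.4.6, pandas 2.3.3 and matplotlib 3.10.9 served correlations and figures. SE is that of the fit, and SD is over tumours.

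The members and gene lists were chosen with earlier results of these data known. Every keratin is accounted for, and of the other lists any gene called between passages at matched treatment or for prior RANK-Fc averaged, and the 3 largest differences, are named for lists of epithelial genes; the lists were not described for the comparison added later. Replicate numbers follow accession order and pair nothing. Alternatives covered background correction, normalisation, filter, dye, intraspot correlation, variance, probe choice, log ratios alone and leaving out each tumour.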

Additional observations from a re-analysis of the deposited data

How the results depend on the processing

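No paired analysis was possible because the labels carry no replicate numbers and do not tie passage 2 tumours to passage 1 tumours. Most counts held within 1.5 times under every alternative run. No keratin was called for RANK-Fc in passage 1, for current RANK-Fc without prior treatment in passage 2, or for the mean over 3 backgrounds. Current RANK-Fc on the background of prior RANK-Fc was not tested by itself. None was called for prior RANK-Fc alone, for the interaction or when the RANK-Fc differences of the 2 passages were set against each other. For prior and current RANK-Fc against controls the count went from 0 to 1 (Krt23) with median centring, and it ran from 0 to 1 over the fits that left out 1 tumour. For prior RANK-Fc averaged it was 2 with the processed signals (Krt9 added) and 0 with log ratios alone, and 1 in every fit without 1 tumour. Between passages it was 0 with log ratios alone, 7 without the 2 tumours that stand apart, 1 when passage 2 tumours with prior RANK-Fc were used, and 2 to 5 without 1 tumour; it was 2 (Krt23 and Krt27) without passage 1 control 1, passage 1 control 2 or passage 2 control 2. Over the 6 groups it was 1 (Krt23) with no background subtraction, median centring, quantile normalisation, the filter on all 16 channels, no filter or the mean of probes. It was 0 with log ratios alone and reached 3 in the remaining settings, and it was 1 to 2 without 1 tumour. Of the 7 pairs, 2 to 4 passed without 1 tumour. Log ratios alone use 8 arrays for 6 coefficients. With median centring the median of all genes shifted by 0.17 for prior RANK-Fc averaged and by -0.13 between passages, and the directions of Krt23 held. A filter of 1 tumour kept 32 keratins and one of all 16 tumours kept 21. Groups of 2 or 3 tumours limit every value.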
